A study of Peromyscus polionotus with 11 samples.

Results

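The genes described here encode the proteins of the cytosolic ribosome, measured in 2 forebrain nuclei of the oldfield mouse (Peromyscus polionotus) kept in long or short days. Members were taken from the gene annotation of the array by symbol alone, though the gene group itself was picked with earlier results of these data known. A probe set (a group of short probes read as 1 value) was a member if it carried a single gene symbol of the form Rpl or Rps with a number and an optional letter, or Rplp0, Rplp1, Rplp2 or Rpsa. S6 kinases and pseudogenes were left out. This gave 96 of 22626 probe sets, for 45 of 12393 genes: 24 genes of the large subunit (43 probe sets) and 21 of the small subunit (53 probe sets). A further 102 probe sets name a ribosomal protein gene beside other symbols, often a pseudogene, and were not used.

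Total RNA of tissue micropunches was labelled with biotin and hybridised to 11 house-mouse arrays. The medial preoptic area, a hypothalamic region for parental and sexual behaviour, gave, by the labels, 3 long-day samples (numbered 1, 2 and 3) and 3 short-day samples (4, 5 and 6). The bed nucleus of the stria terminalis, which links the amygdala with the hypothalamus, gave 3 long-day samples (1, 2 and 3) and 2 short-day samples (4 and 5). The labels state no genotype, age, sex or hours of light, and all groups are of the same species. The comparison asks how gene expression in each nucleus depends on day length. The design text calls the samples independent but do not tie them to named animals, so p-values measure the spread between these samples.

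The ribosome translates mRNA into protein. Its small subunit reads the codons, its large subunit joins the amino acids, and a stalk on the large subunit recruits the elongation factors. Ribosomal protein mRNAs are short and abundant in all cells, and most start with a run of pyrimidines through which the mTOR kinase sets how strongly they are translated. That control acts on translation and need not show in mRNA levels. A few members have a paralogue, and several have many processed pseudogenes, so that probes for them can also match related sequences.

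Facts of the whole set of arrays that bear on the members were these. Intensities were normalized before deposit, with a median of 19 on each array. On the first principal component of all probe sets the short-day medial preoptic array 6 lay at -31.2, outside the other arrays (-6.63 to 25.4). Among markers of the punched regions, Gal, the neuropeptide galanin of preoptic neurons, was lower in the bed nucleus (log2 difference -0.65, adjusted p = 0.00205, limma). Otp, a hypothalamic transcription factor of the same marker list, was higher there (0.52, adjusted p = 0.0487, limma), against the direction of Gal. The striatal Ppp1r1b was also higher (0.58, adjusted p = 0.0215, limma). The 86 marker probe sets of 9 cell classes read at least 7 on all arrays. Without a detection call this does not show that each marker was expressed.

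Of the 96 member probe sets, 72 had a mean at or above the array median and 24 lay below it, and 38 of 45 genes had at least 1 probe set at or above it. Because probes match the oldfield mouse to an unknown degree, levels of different probe sets cannot be ranked as mRNA levels. Levels also differed widely between probe sets of single genes, and the cause was not tested. The 6 probe sets of Rpl35, a large-subunit protein, had mean intensities from 13.0 to 3066, and the 6 of Rps18, a small-subunit protein, from 13.9 to 2205. Of the 22 genes with more than 1 probe set, 9 had probe sets on both sides of the array median. Among members, 40 probe sets carry the name ending for probes that may match other transcripts (_x_at), 26 the ending for alternative transcripts of the gene (_a_at) and 2 the ending for transcripts of several genes (_s_at).

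**Figure D1:**
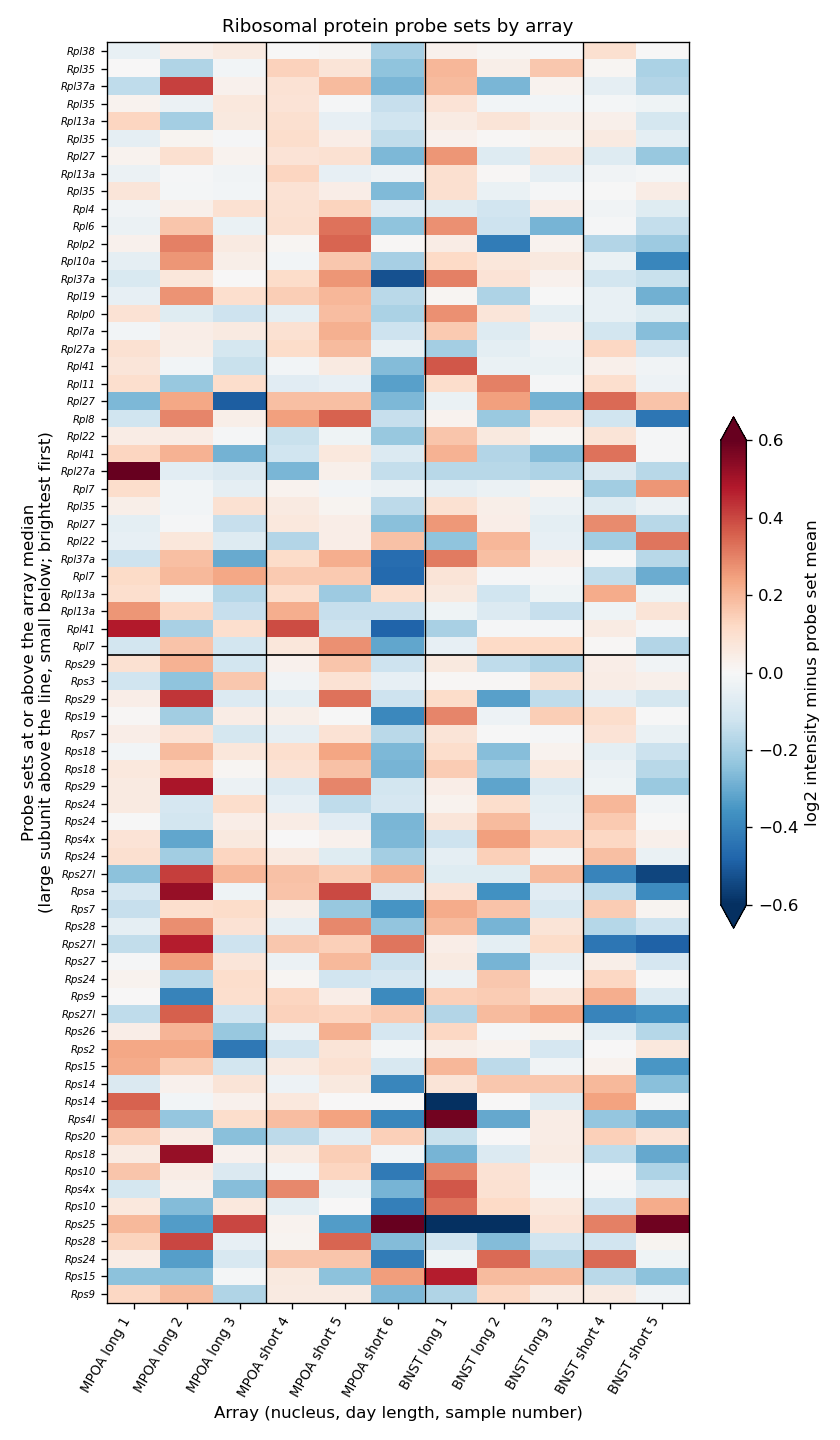
Log2 intensity minus the probe set's mean over the 11 arrays (colour, from -0.6 to 0.6, with stronger values shown at the end colours), for the 72 member probe sets at or above the array median. Columns are arrays (MPOA, medial preoptic area; BNST, bed nucleus), vertical lines separate the 4 groups, and probe sets of the large subunit stand above the horizontal line. Most rows are pale; the short-day MPOA array 6 has the most blue rows.

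No member passed the test for a difference between short and long days in either nucleus, which does not show that there was none. The test was limma on log2 intensities with 4 group means, with p-values adjusted by Benjamini-Hochberg over all 22626 probe sets and a threshold of 0.05. In the medial preoptic area 0 of 96 members passed (background 0% of all probe sets), and 4 had an unadjusted p under 0.05 (background 3.5%), 1 higher in short days (background 1.83%) and 3 lower (background 1.68%). For the bed nucleus 0 passed (background 0.0442%), and 5 had an unadjusted p under 0.05 (background 12.7%), 1 higher (background 5.79%) and 4 lower (background 6.87%). For the mean of both nuclei 0 passed (background 0.0133%), with 3 unadjusted (background 9.02%), 2 higher (background 4.46%) and 1 lower (background 4.56%). For the difference between the day length effects of the nuclei 0 passed (background 0%), with 6 unadjusted (background 8.34%), 2 above 0 (background 3.91%) and 4 below (background 4.44%). Between the nuclei 0 passed, against a background of 1.03%, and 8 had an unadjusted p under 0.05 (background 11.9%), 0 higher in the bed nucleus (background 5.72%) and 8 lower (background 6.14%). Over both directions the members' unadjusted shares were below the background in all comparisons except the medial preoptic one, where it was 4.17%.

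The intervals show how large a difference these arrays leave room for. In the medial preoptic area the 95% interval of the short-minus-long difference lay within a 1.5-fold change either way for 91 of 96 members (94.8%), against 93.0% of all probe sets. In the bed nucleus this held for 77 members (80.2%), against 73.5% of all probe sets. Between the nuclei it held for 92 members (95.8%), against 96.5%. The intervals lay within a 2-fold change for 95, 95 and 96 members in the same order. Among the 45 members with a mean intensity of 100 or more, the 1.5-fold bound held for 45 (medial preoptic area), 39 (bed nucleus) and 42 (between nuclei). These intervals are per probe set and not adjusted for their number.

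**Figure D2:**
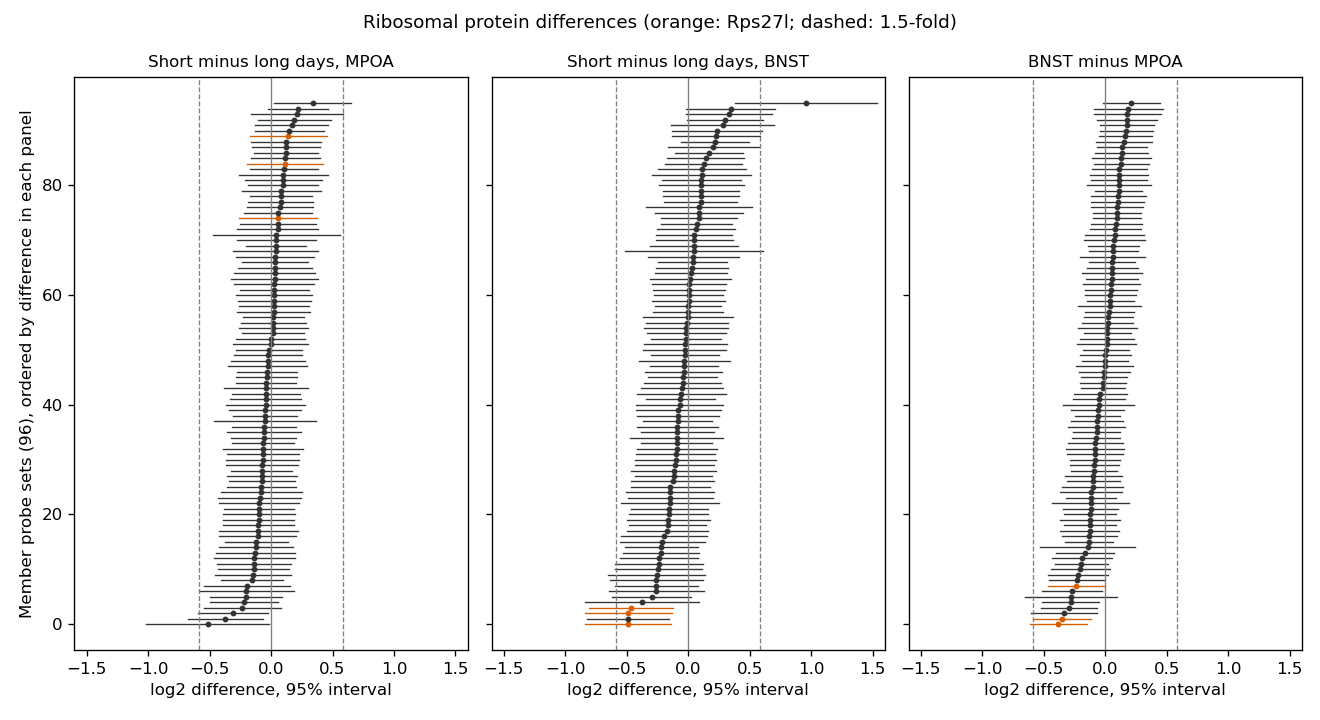
Fitted log2 difference (point) and 95% interval (line) of each of the 96 member probe sets, for short minus long days in the medial preoptic area (MPOA), the same in the bed nucleus (BNST), and BNST minus MPOA; probe sets are ordered by difference within each panel. Dashed lines mark a 1.5-fold change; the 3 Rps27l probe sets (orange) lie near 0.06 to 0.14 in the first panel and near -0.49 to -0.47 in the second.

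The medians were small. For day length in the medial preoptic area 43 members were above 0 and 53 below, with a median log2 difference of -0.03 against 0.00 for all probe sets. Without the short-day array 6 the median of the members was 0.04, with 64 above 0, so its sign rests on that array. For day length in the bed nucleus 37 members were above 0 and 59 below, with a median of -0.03 against -0.01 for all probe sets, and this turned to 0.03, with 57 above 0, under quantile normalization. Between the nuclei 48 were above and 48 below 0, with a median of -0.00. Quantile normalization also moved the members above 0 from 30 to 51 for the mean of both nuclei and from 43 to 61 for the difference between the day length effects. By subunit, the medial preoptic median was 0.01 for the large and -0.04 for the small subunit. The bed nucleus medians were -0.05 and -0.01, and those between the nuclei 0.00 and -0.02.

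Bright probe sets in general read lower on the short-day bed nucleus arrays. Of all 1865 probe sets with a mean intensity of 100 or more, 1393 were below 0, with a median of -0.13. The 45 members at that brightness had a median of -0.05, with 31 below 0. Under quantile normalization, which gives all arrays the same spread of values, the median was -0.00 for all bright probe sets and 0.04 for the members, with 31 of 45 above 0. Neuronal markers were at a median of -0.23 in the same comparison, with 8 of 10 probe sets below 0. Their summed intensity was 2177 to 2488 on the long-day and 2104 to 2231 on the short-day bed nucleus arrays. The part of neurons in the members' values was not tested. In micropunches, fewer cells of a type and less RNA per cell cannot be told apart.

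Bright ribosomal protein members read lowest on the short-day medial preoptic array 6. The median deviation of the 45 bright members from their own means was -0.16 on that array, and -0.10 on the short-day bed nucleus array 5, the next lowest. It was 0.13 on the short-day medial preoptic array 5, the highest. The 24 members below the array median were not low on array 6, at a median deviation of 0.04. All 1865 bright probe sets were at -0.07 on array 6 and at -0.12 on the short-day bed nucleus array 5. Quartiles of all intensities were 14 and 33 on array 6, against 13 and 34 or 35 on the other arrays. The part of this narrower range in the members' values was not tested. Of these 45 members, 16 had their lowest value of all arrays on array 6 (35.6%), where 22.5% of all bright probe sets also had theirs. None had its highest value there, against 5.84% of all bright probe sets. Arrays 4, 5 and 6 are replicates of 1 group, so this is spread within a group. By summed intensity, markers of oligodendrocytes (311, others 361 to 605), striatal neurons (77, others 87 to 200) and red cells (25, others 27 to 35) were also lowest on array 6. The red cell sum is over only 2 probe sets, and 25 and 27 are a small step apart in whole-number values. By median deviation the striatal markers were lower on arrays 4 and 5 (-0.35 and -0.31) than on array 6 (-0.13). Markers of hypothalamic and preoptic neurons had their highest sum on array 6 (426, others 336 to 418). By median deviation they were higher on the long-day medial preoptic array 1 and the short-day array 5 (0.11 on each) than on array 6 (0.08). The part of these cell types in the members' values was not tested.

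**Figure D3:**
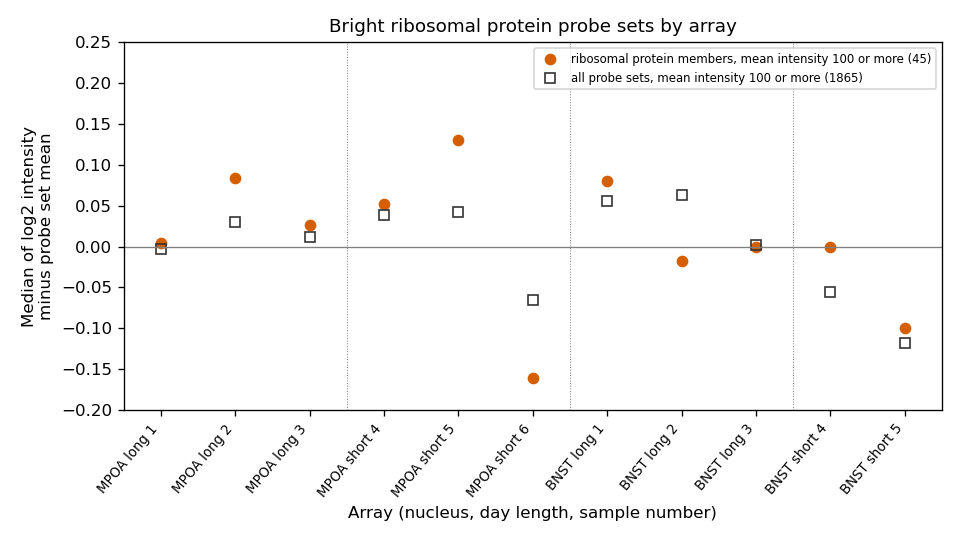
Median over probe sets of the log2 intensity minus the probe set's own mean, for each of the 11 arrays, for the 45 ribosomal protein members with a mean intensity of 100 or more (filled circles) and all 1865 probe sets at that brightness (open squares); there are no error bars. The members lie lowest on the short-day MPOA array 6 (-0.16) and highest on the short-day MPOA array 5 (0.13).

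Large-subunit members were described in the order of their roles. The stalk proteins were represented by Rplp0, the base of the stalk, and Rplp2, one of its arms. Rplp0 read 367, 328 and 317 on long-day and 332, 392 and 303 on short-day medial preoptic arrays, and 417, 363 and 332 against 335 and 328 in the bed nucleus. The groups overlapped in both nuclei. Its log2 difference was 0.02 ± 0.13 (SE) in the medial preoptic area and -0.15 ± 0.15 in the bed nucleus, where quantile normalization gave 0.01. Long-day Rplp2 values were 624, 756 and 638 and short-day values 619, 782 and 617 in the medial preoptic area. Its bed nucleus values were 634, 459 and 622 against 543 and 527, also with overlap. It was lower in the bed nucleus than in the medial preoptic area by the fitted means, at -0.28 ± 0.11, but did not pass (adjusted p = 0.286, limma).

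Other large-subunit members have roles at the catalytic core, at the exit tunnel or outside the ribosome. Rpl4, which lines the tunnel of the growing chain, read 803, 832 and 868 under long days, against 868, 893 and 778 under short days, in the medial preoptic area. Its bed nucleus values were 773, 752 and 837 against 803 and 774. The groups overlapped, and the fitted day length differences were 0.02 and 0.00. Rpl8, next to the site where peptide bonds form, was at 0.08 for day length in the medial preoptic area and -0.24 in the bed nucleus, while the nuclei differed by a fitted -0.27 ± 0.12 (adjusted p = 0.345, limma). Rpl38, whose loss in the mouse changes translation of Hox mRNAs, read 3829 to 4691 over all arrays, with differences of -0.08 and 0.04 in the 2 nuclei. Rpl11, which with Rpl5 carries a ribosomal RNA and binds Mdm2 when assembly fails, read 172, 137 and 173 against 153, 155 and 128 in the medial preoptic area and 173, 198 and 160 against 172 and 157 in the bed nucleus. Its differences, -0.14 and -0.10, were within the overlap of the groups.

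Single probe sets of large-subunit genes stood apart from the other probe sets of the same gene. Rpl27a, a gene whose mutation in the mouse causes ataxia, gave the most negative difference of all members in the medial preoptic area, -0.52 ± 0.24. Its values were 192, 74 and 73 under long days, against 64, 79 and 70 under short days, so the difference rests on the long-day array 1. The other Rpl27a probe set read 233, 224 and 203 against 236, 249 and 212, a difference of 0.08. For Rpl27 the 3 probe sets gave -0.24, 0.28 and -0.02 in the bed nucleus, and the last moved to 0.20 without the short-day array 5. Rpl10a read 591, 570 and 566 under long days, against 529 and 414 under short days, in the bed nucleus (-0.30 ± 0.16, adjusted p = 0.438, limma). Its groups did not overlap there, but the difference was -0.48 without the short-day array 4 and -0.12 without array 5.

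Groups that do not overlap were frequent in the bed nucleus in general. This held for 19 of 96 members (19.8%), against a background of 23.7% of all probe sets with 3 against 2 arrays. Of these, 6 were higher in short days (background 10.2%) and 13 lower (background 13.5%). The medial preoptic groups did not overlap for 3 members (3.12%), against a background of 5.19%, with 1 higher (background 2.64%) and 2 lower (background 2.55%). These were a probe set of Rpl22, whose loss in the mouse impairs T cell development (88, 88 and 85 against 78, 84 and 73), a dim Rpl35 probe set and a dim Rpsa probe set. The other Rpl22 probe set read 48, 52 and 47 against 44, 51 and 56, with overlap, at 0.03. Between the nuclei the groups were apart for 0 members, against a background of 1.47% (0.703% higher and 0.769% lower in the bed nucleus).

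Among small-subunit members, the 3 probe sets of Rps27l gave 3 of the 4 most negative day length differences in the bed nucleus, the other being that of a dim Rps15 probe set. The gene encodes a paralogue of Rps27 that is a target of the tumour suppressor p53. The brightest of its 3 probe sets read 707, 707 and 848 on long-day and 566 and 508 on short-day bed nucleus arrays. The second read 214, 200 and 225 against 154 and 149, and the third 119, 153 and 158 against 102 and 104. For all 3 the short-day values lay below the long-day values. The log2 differences were -0.49 ± 0.17, -0.49 ± 0.17 and -0.47 ± 0.17, with adjusted p-values of 0.234, 0.230 and 0.241 (limma), so none passed. Over the alternatives of processing they ranged from -0.56 to -0.39, from -0.53 to -0.35 and from -0.59 to -0.31. All probe sets with a mean intensity of 100 or more, as these have, were at a median of -0.13 in this comparison. The 3 probe sets read the same RNA samples and are not separate evidence.

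On medial preoptic arrays the brightest Rps27l probe set read 628, 993 and 855 under long days, against 840, 825 and 864 under short days. The short-day values lay inside the long-day range for this probe set and for the others (188, 289 and 191 against 233, 230 and 260, and 121, 172 and 124 against 148, 147 and 150). The differences were 0.06, 0.14 and 0.11. The test of the difference between the nuclei in the day length effect gave -0.54 ± 0.23, -0.63 ± 0.22 and -0.58 ± 0.22, with adjusted p-values of 0.556, 0.504 and 0.527 (limma), none of which passed. Between the nuclei Rps27l was at -0.38 ± 0.11, -0.35 ± 0.11 and -0.24 ± 0.11, with adjusted p-values of 0.130, 0.166 and 0.407 (limma). This comparison averages both day lengths. For each probe set the long-day values of the nuclei overlapped, while both short-day bed nucleus values lay below all medial preoptic values. The difference between the nuclei thus rests largely on the same short-day bed nucleus arrays as the day length difference. Without the long-day medial preoptic array 1 the brightest probe set passed between the nuclei, at -0.47 (adjusted p = 0.0323, limma), while over its 19 alternatives the adjusted p ranged from 0.0323 to 0.345. Rps27 itself read 217, 172 and 201 against 214 and 195 in the bed nucleus, a difference of 0.06 ± 0.15, and 208, 249 and 220 against 204, 239 and 191 in the medial preoptic area, where it was at -0.10.

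**Figure D4:**
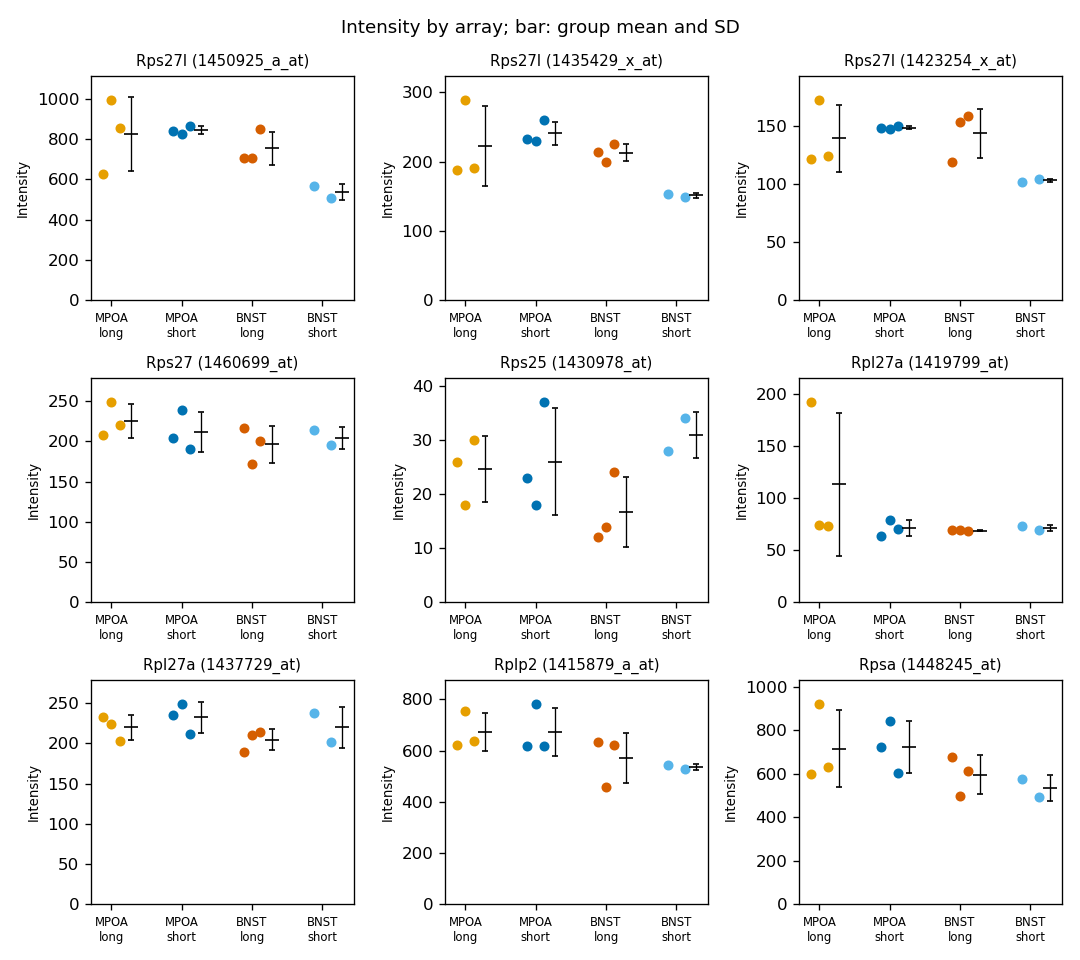
Intensity on each array (points, linear axis from 0) with the group mean and SD (black bars, n = 3, or n = 2 for short-day BNST), for 9 member probe sets in the medial preoptic area (MPOA) and bed nucleus (BNST). The 3 Rps27l probe sets are lowest on the short-day BNST arrays, the Rps25 values overlap between most groups, and 1 Rpl27a probe set has a single high value of 192.

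Rps25, a small-subunit protein needed for some forms of internal initiation in yeast and human cells, gave the most positive difference of all members. Its probe set read 12, 14 and 24 under long days, against 28 and 34 under short days, in the bed nucleus, which do not overlap (0.95 ± 0.28, adjusted p = 0.160, limma). Medial preoptic values were 26, 18 and 30 against 23, 18 and 37, with a difference of 0.04. The short-day bed nucleus values were thus within the range of the medial preoptic arrays. Over 20 alternatives the bed nucleus difference ranged from 0.54 to 1.25 and the adjusted p from 0.0614 to 0.520. Rps15, at the head of the small subunit, was at -0.49 ± 0.16 in the bed nucleus by a probe set that read 28, 23 and 23 against 18 and 17 (adjusted p = 0.203, limma). Its brighter probe set read 114, 89 and 98 against 101 and 78, with overlap, at -0.17.

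Further small-subunit members were as follows. Rps3, at the entry of the mRNA channel, read 4311, 3956 and 5231 against 4609, 4971 and 4525 in the medial preoptic area and 4693, 4699 and 4987 against 4827 and 4774 in the bed nucleus, with differences of 0.07 and 0.00. Rps19, a gene mutated in Diamond-Blackfan anaemia in humans, was at -0.07 and -0.09, and at 0.18 ± 0.11 between the nuclei. Rps4x and its relative Rps4l were at -0.02 and -0.05 in the medial preoptic area and -0.01 and -0.38 in the bed nucleus by the bright Rps4x and the Rps4l probe set. The dimmer Rps4x probe set was at 0.10 in the medial preoptic area and -0.20 in the bed nucleus. The Rps4l values, 100, 54 and 69 against 57 and 54, overlapped, and with 1 array left out the difference ranged from -0.58 to -0.14. All 4 probe sets of Rps20 had differences above 0 in the bed nucleus, from 0.14 to 0.33, at mean intensities from 9.55 to 68.2, and none passed. That of 0.33 ranged from 0.13 to 0.54 with 1 array left out, the extremes being without the short-day arrays 4 and 5.

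Rps6, the substrate of the S6 kinases, could be read only from 2 dim probe sets with mean intensities of 11.7 and 11.4. They gave opposite signs in the medial preoptic area, -0.22 ± 0.13 and 0.34 ± 0.15, with values of 9 to 14. At the array median, 19 and 20 lie 0.07 apart on the log2 scale, and whole numbers below it lie further apart. The paralogues Rpl3l and Rpl39l, known for expression in muscle and testis, were also dim, at 11 to 15 and 16 to 23. Rpsa, a small-subunit protein also known as the laminin receptor precursor, read 597, 920 and 630 against 721, 844 and 603 in the medial preoptic area by its bright probe set. Bed nucleus values were 678, 498 and 612 against 577 and 494. It was at -0.34 ± 0.13 between the nuclei, with overlap and without passing (adjusted p = 0.268, limma).

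Members also differed from array to array in opposite ways within a group, as seen in 2 genes that were chosen after their values were seen. Rps29 by its brightest probe set read 8237, 8939 and 7157 on the long-day medial preoptic arrays 1, 2 and 3, and 8044, 6953 and 6798 on the long-day bed nucleus arrays. Its next probe set read 4533, 5923 and 4161, and 4757, 3514 and 3967. Rps24, by the brightest of its 6 probe sets, read 970, 871 and 1006 in the medial preoptic area and 948, 1005 and 897 in the bed nucleus on the same arrays. Within the long-day medial preoptic group Rps29 was thus highest and Rps24 lowest on array 2. Within the long-day bed nucleus group Rps24 was highest on array 2, and the second Rps29 probe set was lowest there. The brightest Rps29 probe set was lowest on array 3 there. The third read 1088, 1473 and 1021, and 1075, 840 and 989, with the order of the second. Rpsa, by its bright probe set, and Rplp2 were likewise highest on array 2 of the long-day medial preoptic group and lowest on array 2 of the long-day bed nucleus group. Of the 45 bright members, 24.4% had their highest value of all arrays on that medial preoptic array (14.6% of all bright probe sets). Their lowest value lay there for 13.3% (6.92%). On that bed nucleus array 15.6% had their lowest value (4.83%) and 8.89% their highest (15.8%). A number shared by the nuclei is not known to mark the same animal.

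A few related genes lie outside the member rule. Fau, which encodes a small-subunit protein fused to a ubiquitin-like peptide, read 1214, 1375 and 1149 against 1278, 1412 and 1089 in the medial preoptic area. Its bed nucleus values were 1179, 1209 and 1263 against 1252 and 1105. Rps3a1 read 50 to 62 in the medial preoptic area and 59 to 66 in the bed nucleus, and Rpl22l1 read 33 to 43 over all arrays. By a dim probe set the paralogue Rpl7l1 read 14, 15 and 16 against 13, 13 and 10, and 13, 14 and 14 against 12 and 10, with no overlap in either nucleus (-0.33 and -0.32, adjusted p = 1 and 0.389, limma). Its other probe set gave 0.16 and 0.10.

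Other genes of the translation pathway were counted in the same fit. Of 127 probe sets for 74 mitochondrial ribosomal proteins, which build the separate ribosome of mitochondria, 0 passed for day length in either nucleus or between the nuclei. Their medians were -0.02, -0.06 and -0.03, and 2, 19 and 12 had an unadjusted p under 0.05. These are shares of 1.57%, 15.0% and 9.45%, against 3.5%, 12.7% and 11.9% of all probe sets. The smallest adjusted p was that of Mrpl41 between the nuclei, which read 344 to 530 in the medial preoptic area and 288 to 367 in the bed nucleus (-0.44, adjusted p = 0.0783, limma). Of 38 probe sets for 16 elongation factors and other genes with pyrimidine-start mRNAs, 0 passed in these comparisons. Their medians were -0.03, -0.04 and -0.01. In the same order 1, 2 and 3 had an unadjusted p under 0.05 (2.63%, 5.26% and 7.89%, against the same shares of all probe sets). Day length differences ranged from -0.37 to 0.16 in the medial preoptic area and from -0.30 to 0.52 in the bed nucleus. Eef1a1, which brings aminoacyl-tRNA to the ribosome, read 996 to 1150 over all arrays and was at -0.03 and -0.02 for day length in the 2 nuclei.

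Of 53 probe sets for 30 ribosome assembly genes 0 passed. Their median was 0.00 in the medial preoptic area and -0.11 in the bed nucleus, where 38 of 53 were below 0. There 13 had an unadjusted p under 0.05 (24.5%, background 12.7%), 10 lower (background 6.87%) and 3 higher (background 5.79%). Of all 1865 probe sets with a mean intensity of 100 or more, 18.6% had one there, 302 lower and 44 higher. Their median was -0.13. The part of brightness in the values of the assembly genes was not tested. Nhp2, a protein of the RNA-guided pseudouridylation complex, read 293, 270 and 286 under long days, against 157 and 182 under short days, in the bed nucleus, without overlap (-0.74, adjusted p = 0.106, limma). On medial preoptic arrays the same probe set read 182, 187 and 214 against 233, 225 and 140. Of 27 probe sets for S6 kinases and mTOR signalling 0 passed, with medians of -0.04 and 0.01 for day length in the 2 nuclei. Some members of the Myc family drive ribosomal protein and ribosome assembly genes. Of its 14 probe sets 1 passed in the bed nucleus (background 0.0442%). It was a Mycn probe set, lower in short days at 83, 80 and 83 against 40 and 45 (-0.95, adjusted p = 0.0407, limma). This call was not recomputed under the alternatives. The other Mycn probe sets were at -0.19 and 0.05 there.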

How the data were processed

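Each deposited value is the intensity of a probe set, a whole number on a linear scale. The authors used RMA version 3.4, per the submitters' processing notes, and no source used here gives its settings. Gene names came from the platform annotation. The table held 22690 probe sets, of which 64 controls were set aside. Log2 intensities of the other 22626, with no offset, were fitted over all 11 arrays with limma (version 3.58.1, R 4.3.3; functions lmFit and eBayes), giving 7 residual and 12.9 prior degrees of freedom. There were 5 comparisons, all two-sided, with Benjamini-Hochberg adjustment over all probe sets. Differences are fitted log2 values ± SE. No detection call was used, and precision is limited by the number of arrays. The procedure was tested on simulated arrays.

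The members and lists were chosen with earlier results of these data known. The rule for named members took, in each comparison, the 6 largest positive and 6 largest negative differences. It added the stalk proteins, Rpl11, Rps6, Rpsa and members with a paralogue. It also added up to 6 genes whose probe sets lay furthest apart, and the 4 highest and 4 lowest members on the array furthest from its group. Rpl4, Rpl22, Rpl38, Rps3 and Rps29 fall outside it and were chosen after their values were seen. Deviations of same-numbered arrays of the nuclei were weakly correlated (-0.03 to 0.07). For numbers 3 and 4 this correlation (0.07 for each) was above the highest with another number (0.03 and 0.04). For numbers 1, 2 and 5 it was below. With so few arrays a group this cannot settle whether numbers mark pairs, and the main fit did not treat them as pairs. No sequence tables were used here.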

Additional observations from a re-analysis of the deposited data

How the results depend on the processing

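Counts of members past the threshold were recomputed under up to 24 alternatives in the 5 comparisons, and the count was 0 in 121 of 122 values, including those reported; the exception was 1 member between the nuclei without the long-day medial preoptic array 1. With each array left out in turn the count ranged from 0 to 1 between the nuclei. The median of the members in the medial preoptic area ranged from -0.075 to 0.037 with 1 array left out, and that in the bed nucleus was 0.032 under quantile normalization. All other values of the 5 medians lay within the error that the spread between arrays gives. The replicate block on the sample number, with a consensus correlation of 0.00786, gave 0 members in all comparisons. Of 2671 values for 143 results on named members, 2618 stayed within 1 SE on the same side of the threshold, 42 moved further, 1 passed and 10 changed sign by more than 1 SE. Under quantile normalization Rplp0 was at 0.0094 in the bed nucleus. The other sign changes each concern 1 probe set of a gene, whose difference ranged as follows with 1 array left out. In the medial preoptic area these were the brightest Rps27l probe set from -0.13 to 0.20, that of Rps4l from -0.20 to 0.15, the brightest of Rps10 from -0.27 to 0.012 and that of Rpl41 with a mean intensity of 25.5 from -0.43 to 0.0028. In the bed nucleus they were the dimmer Rps6 probe set from -0.083 to 0.30, the brighter of Rps15 from -0.36 to 0.017, the brighter of Rps14 from -0.39 to 0.061 and the dimmest of Rpl27 from -0.25 to 0.20. Between the nuclei the brighter Rps14 probe set ranged from -0.0018 to 0.22. The cause was not tested. The members at or above the array median alone were chosen as an alternative after seeing the data.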
